A study of Mus musculus with 4 samples.

Results

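Tubulins are the building blocks of microtubules, and this account follows 9 mouse tubulin genes in brain after a stroke-like occlusion. They are the alpha-tubulin genes Tuba1a, Tuba1b, Tuba1c and Tuba4a and the beta-tubulin genes Tubb2a, Tubb2b, Tubb3, Tubb5 and Tubb6. Every non-control probe whose gene name in the scanner files was one of these symbols or an older or newer symbol of it was taken, which gave 15 probes of 41174, for 9 genes of 27670 names. The 9 genes were chosen by their log2 ratios of occluded over sham-operated mice on these same 4 arrays, at 6 h and 24 h, so those ratios, and the calls the fit across all probes gave them, are a description and support nothing. All 15 probes passed the filter on dim probes, and each was well above background in every RNA group on both of its arrays.

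Microtubules assemble from dimers of 1 alpha-tubulin and 1 beta-tubulin chain, and mammals encode several isotypes of each that differ mostly in their acidic tails, which motors and modifying enzymes read. Neurons pack long axons and dendrites with stable microtubules and so hold much of the tubulin of the brain. On that background the isotypes were put into a class of abundant neuronal isotypes (Tuba1a, Tuba1b, Tuba4a, Tubb2a, Tubb2b, Tubb3 and Tubb5, 12 probes) and a class of minor isotypes of the adult brain (Tuba1c and Tubb6, 3 probes). Some of the abundant class, such as Tubb5 and Tuba1b, are also made by other cells.

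The mice were male C57BL/6J animals of 8 to 12 weeks. In the PMCAO arm (a lasting occlusion of the middle cerebral artery, which models ischemic stroke) a nylon filament was passed through the right carotid artery and left in the middle cerebral artery. In the sham arm the neck was opened, the artery exposed and the wound sutured. Saline went into a cerebral ventricle in both arms, and brains were collected 6 h or 24 h afterwards, in groups of 3 mice. RNA of PMCAO and sham mice was hybridised together on 4 two-colour arrays of 60-base probes, 2 arrays per time, with PMCAO RNA in Cy5 on array 1 and in Cy3 on array 2 of each time. Sham mice carry the anaesthesia, the neck surgery and the ventricular injection as well, so the ratios leave out whatever these do. The design text states that the hemisphere opposite the occlusion was used for the arrays, whereas the sample labels give only brain. How the animals of a group were pooled, and whether arrays 1 and 2 of a time carry separate RNA, is not given in the labels, so errors and p-values here measure only the spread between arrays, which may be technical. In whole tissue, fewer cells of a type and less RNA per cell cannot be told apart.

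Of the 43379 spots of an array, 66.3% to 73.7% were well above background for PMCAO RNA and 67.3% to 73.6% for sham RNA. Over the probes tested, whose values are not independent, the log2 ratios of the paired arrays had a correlation of 0.552 (6 h) and 0.615 (24 h). Arrays of different times correlated at 0.601 and 0.612 when they shared the dye orientation, and at 0.277 and 0.339 when they did not. The labelled tissue was checked on 9 neuron markers, Rbfox3, Snap25 and Nefl among them. All 9 could be tested, and their summed intensity was 234440 to 236995 in PMCAO and 229715 to 232519 in sham at 6 h, and 226344 to 236030 in PMCAO and 248733 to 252130 in sham at 24 h.

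The probes differ in how far they separate 1 isotype from the next, and the sequences below show why the probes are described 1 by 1. The Tubb2a probe A_52_P621603 (mouse build mm7, chr13:33492088-33492147, minus strand) and the Tubb5 probe A_52_P163796 (mm7, chr17:33936683-33936742, minus strand) overlap in a stretch that differs little between the genes. Capitals mark the 25 bases over which they align, of which 22 were identical (88.0%).
Tubb2a A_52_P621603: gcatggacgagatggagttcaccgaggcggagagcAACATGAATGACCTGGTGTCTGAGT
Tubb5 A_52_P163796: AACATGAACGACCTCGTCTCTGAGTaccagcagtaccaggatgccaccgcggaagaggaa
The files list RefSeq transcripts of Tuba1b, Tuba1c and Tuba1a under the Tuba1b probe A_52_P503809, and of Tubb2a, Tubb2b, Tubb3 and Tubb6 under the Tubb2a probe A_52_P621603. The signal of those 2 probes therefore cannot be assigned to 1 isotype. The other listings name 1 gene each, except for the Tuba1c probe and the second Tubb6 probe, under which no RefSeq transcript is listed. The Tuba1c probe A_52_P479099 (mm7, chr15:99023456-99023515, plus strand) carries the older symbol Tuba6 in the files. None of its 3 forward reading frames is free of stop codons, and its bases 24 to 53, printed here because this probe carries 1 of the 2 large ratios, hold the polyadenylation signal AATAAA in capitals.
Tuba1c A_52_P479099: tcctaaactgtcAATAAAggtgtttccgtt

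Tubb6 was read by A_51_P421140 (mm7, chr18:67794951-67795010, plus strand), matched to the RefSeq transcript of Tubb6, and by A_52_P150903 (mm7, chr18:67793319-67793378, minus strand). The second lies 1573 bases from the first on the opposite strand, and the files describe it by an unclassified cDNA clone from aorta and vein. By comparison, all 12 probes of the 7 member genes found in the RefSeq promoter table lie on the strand of their gene. Which exon or untranslated region each probe falls in was not looked up, as no annotation of build mm7 was used here.

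The minor isotypes Tubb6, on 1 of its 2 probes, and Tuba1c were far higher in PMCAO than in sham brain at both times, and the 12 probes of the abundant neuronal isotypes had ratios near equality at 6 h and mostly a little below it at 24 h. Fitted sham signal was higher at 24 h than at 6 h for every tubulin probe, with none past the adjusted threshold. Its part in the ratios of 24 h was not tested. Tubb6 stood 5.11-fold above sham at 6 h and 12.2-fold above it at 24 h, and Tuba1c 2.59-fold and 6.70-fold. The highest mean log2 ratio among the abundant neuronal probes was 0.17 at 6 h and 0.07 at 24 h, at both times that of Tubb2b. The plot of every tubulin probe on every array shows this separation.

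**Figure D1:**
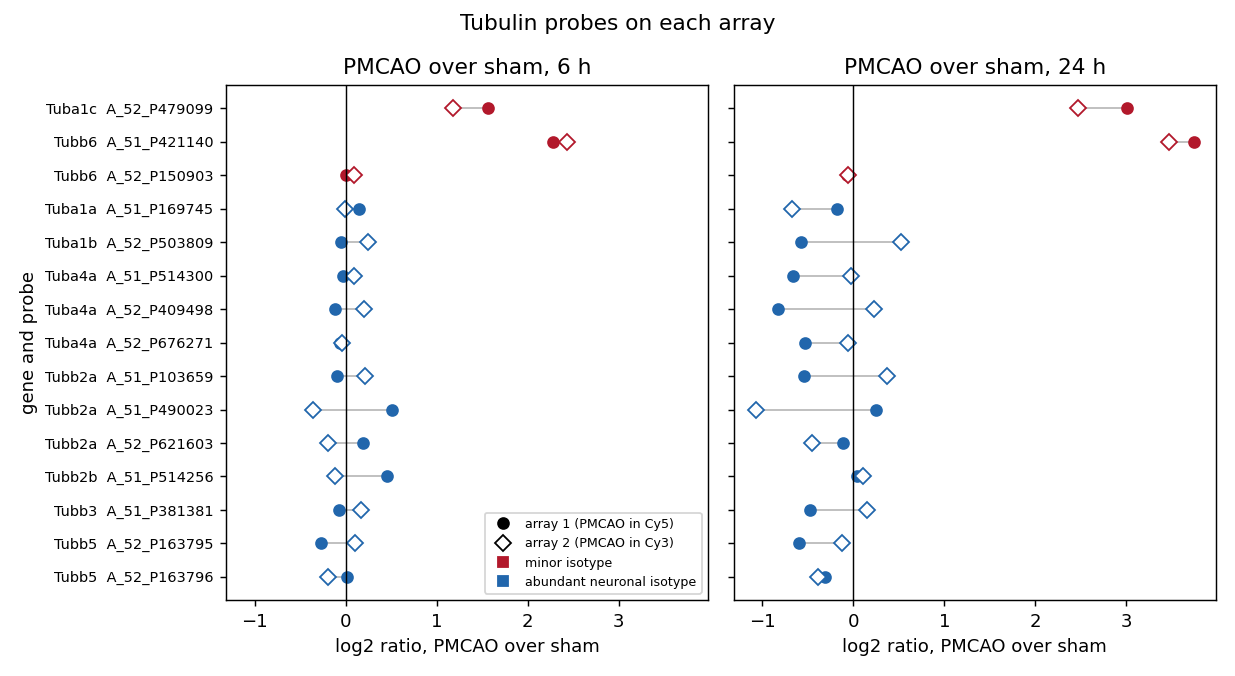
Log2 ratio of PMCAO over sham (horizontal axis) for each of the 15 tubulin probes (rows) at 6 h (left) and 24 h (right), with 1 point per array joined by a line, filled for array 1 and open for array 2. The Tuba1c probe and the Tubb6 probe A_51_P421140 lie above 1 on all 4 arrays, whereas the probes of abundant neuronal isotypes lie between -0.36 and 0.51 at 6 h and between -1.07 and 0.53 at 24 h.

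Tubb6 encodes class V beta-tubulin, a divergent isotype that many tissues express at a low level. At 6 h the probe A_51_P421140 had log2 intensities of 11.74 and 11.57 in PMCAO brain, against 9.46 and 9.13 in sham brain. At 24 h it had 13.52 and 13.31 in PMCAO brain, against 9.78 and 9.84 in sham brain. The PMCAO and sham values did not overlap at either time, and the PMCAO values of 24 h lay above those of 6 h. The log2 ratios were 2.27 and 2.43 at 6 h (mean 2.35 ± 0.10, model SE, n = 2 arrays) and 3.74 and 3.47 at 24 h (mean 3.60 ± 0.10, n = 2 arrays). Among the 28978 probes tested, this ratio ranked 11 from the highest at 6 h and 17 at 24 h.

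The other probe filed under Tubb6, A_52_P150903, behaved differently. Its log2 intensities were 9.32 and 9.39 in PMCAO and 9.32 and 9.30 in sham at 6 h, and 9.25 and 9.30 in PMCAO and 9.32 and 9.36 in sham at 24 h. All 8 values lay within a narrow band, and the mean log2 ratios were 0.05 ± 0.08 at 6 h and -0.07 ± 0.08 at 24 h. Of the 2 probes, the RefSeq-matched one on the plus strand had the large ratio and the one on the minus strand did not, so the Tubb6 ratio described here rests on 1 probe.

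Tuba1c encodes an alpha-tubulin found in many tissues, its protein differing little from those of Tuba1a and Tuba1b. At 6 h its probe had log2 intensities of 13.28 and 13.10 in PMCAO brain, against 11.72 and 11.92 in sham brain. At 24 h the values were 14.58 and 14.58 in PMCAO brain, against 11.57 and 12.10 in sham brain. PMCAO and sham did not overlap at either time, and the 2 sham arrays of 24 h were farther apart than the 2 PMCAO arrays. The log2 ratios were 1.56 and 1.18 at 6 h (mean 1.37 ± 0.16, n = 2 arrays) and 3.01 and 2.47 at 24 h (mean 2.74 ± 0.16, n = 2 arrays), ranks 53 and 54 of all probes tested. At both times array 1, with PMCAO RNA in Cy5, gave the higher ratio.

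**Figure D2:**
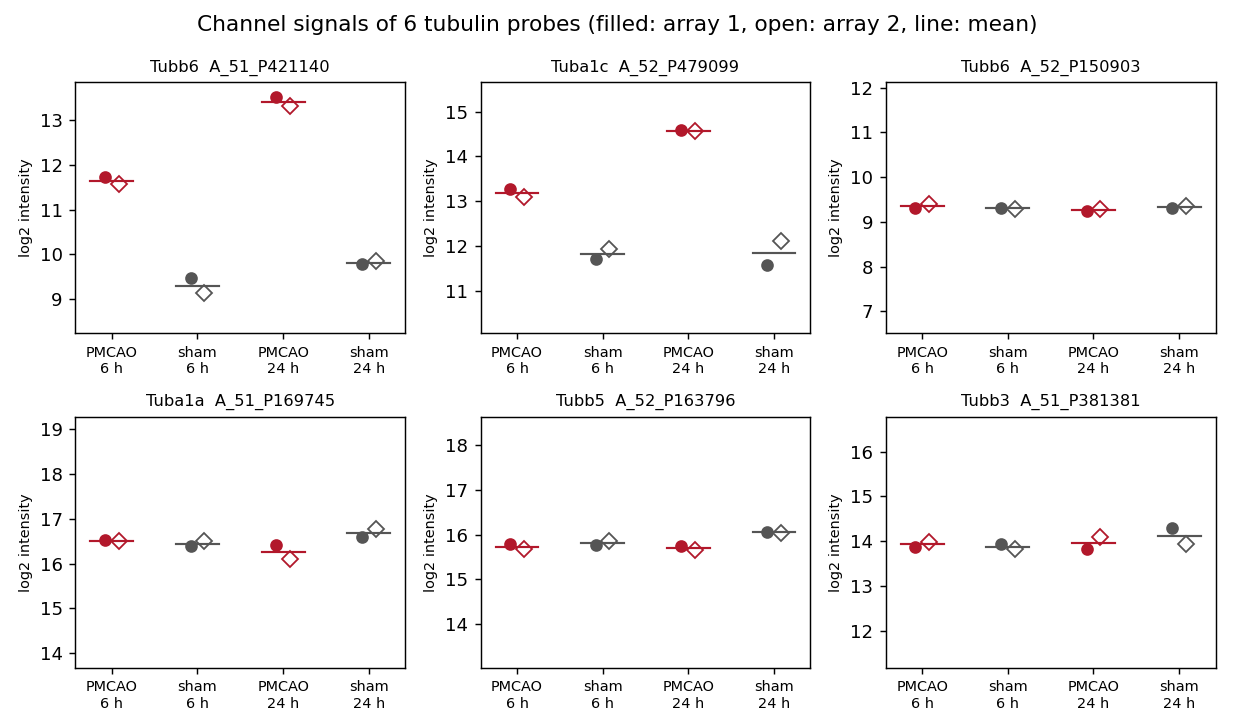
Log2 intensity (vertical axis, spanning the same number of log2 units in every panel) of 6 tubulin probes in PMCAO and sham brain at 6 h and 24 h, with a filled point for array 1, an open point for array 2 and a line at their mean. Only the panels of Tubb6 A_51_P421140 and Tuba1c show PMCAO well above sham, by mean log2 ratios of 2.35 and 1.37 at 6 h and of 3.60 and 2.74 at 24 h, and heights are not comparable between panels because probes differ.

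Tuba1a is the main alpha-tubulin of growing neurons, and its human counterpart is mutated in malformations of the cortex. Its probe A_51_P169745 (mm7, chr15:98935135-98935192, minus strand) had log2 intensities of 16.53 and 16.50 in PMCAO and 16.39 and 16.50 in sham at 6 h. At 24 h it had 16.41 and 16.09 in PMCAO, against 16.59 and 16.77 in sham. The groups overlapped at 6 h and did not overlap at 24 h, with mean log2 ratios of 0.07 ± 0.14 and -0.43 ± 0.14. The 24 h ratio was the lowest of the 15 probes, and its 2 arrays were unequal at -0.18 and -0.67.

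Tuba1b, a widely expressed alpha-tubulin, had log2 ratios of -0.05 and 0.25 at 6 h and of -0.58 and 0.53 at 24 h on the probe shared with Tuba1a and Tuba1c. Its arrays disagreed in sign at both times, and the means were 0.10 ± 0.26 and -0.03 ± 0.26. Tuba4a encodes the alpha-tubulin whose message does not code for the terminal tyrosine of other alpha-tubulins. Its 3 probes had mean log2 ratios of -0.05 to 0.04 at 6 h and of -0.35 to -0.29 at 24 h. On array 1 of 24 h they gave -0.67, -0.82 and -0.53, and on array 2 they gave -0.03, 0.22 and -0.06. The 3 probes therefore lay close together in the mean, while the arrays of 24 h lay apart on each of them.

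Tubb2a and Tubb2b are class II beta-tubulins that neurons express strongly. The mean log2 ratios of the 3 Tubb2a probes lay between -0.00 and 0.07 at 6 h and between -0.41 and -0.09 at 24 h. Probe A_51_P490023 showed the widest split between arrays of any member, with 0.51 and -0.36 at 6 h and 0.25 and -1.07 at 24 h, and probe A_51_P103659 split the other way at 24 h, with -0.55 and 0.37. The Tubb2a probe that aligns with Tubb5 gave 0.19 and -0.19 at 6 h and -0.11 and -0.46 at 24 h. Tubb2b had log2 ratios of 0.45 and -0.12 at 6 h and of 0.04 and 0.10 at 24 h, and was the abundant isotype with the highest mean at both times, 0.17 ± 0.15 and 0.07 ± 0.15. The Tubb2b mean at 24 h was -0.08 when arrays were centred on their median in place of loess.

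Tubb3, the neuron-specific class III beta-tubulin used as a marker of neurons, was spotted 10 times on each array. Its log2 ratios were -0.07 and 0.17 at 6 h and -0.47 and 0.15 at 24 h, with means of 0.05 ± 0.16 and -0.16 ± 0.16. Over the 9 or 10 spots kept on an array the SD was 0.0095 to 0.0237. The 2 arrays of a time thus differed by many times the spread of spots within an array, and the sign of the Tubb3 ratio followed the dye orientation at both times.

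Tubb5 encodes class I beta-tubulin, found in most cell types. Its probe A_52_P163796 had log2 intensities of 15.78 and 15.67 in PMCAO and 15.77 and 15.87 in sham at 6 h, and 15.74 and 15.65 in PMCAO and 16.06 and 16.04 in sham at 24 h. The groups overlapped at 6 h and not at 24 h, where the log2 ratios were -0.32 and -0.39 (mean -0.35 ± 0.09, n = 2 arrays). The second Tubb5 probe, A_52_P163795, gave -0.60 and -0.12 at 24 h, a mean of -0.36 ± 0.15. The 2 probes of Tubb5 thus had nearly the same mean at 24 h, and at 6 h both had a mean of -0.09. Their arrays of 6 h split in opposite ways, with 0.01 and -0.19 on A_52_P163796 and -0.27 and 0.10 on A_52_P163795.

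Set against all probes, 2 of the 15 tubulin probes were called higher in PMCAO at 6 h (limma, Benjamini-Hochberg adjusted p under 0.05), where 0.611% of all probes were, and 0 were called lower, where 0.0138% were. At 24 h 2 were called higher, where 6.57% of all probes were, and 0 lower, where 3.33% were. The called probes were Tuba1c and Tubb6 A_51_P421140 at both times. At an unadjusted p under 0.05 no tubulin probe was lower at 6 h and 2 were at 24 h. The share of all probes at that unadjusted threshold was not computed. Unadjusted counts, here and below, are therefore not read against a background. Because the genes were listed on these contrasts, nothing is read from the counts. With dye orientation as a term in the fit 8 of the abundant neuronal probes were called lower at 24 h, beside 4963 of all probes, against 964 without it. With median centring in place of loess 0 of all probes were called at either time. With the processed signals Tubb6 alone of the 15 was called higher at 6 h, beside 231 of all probes. The series table values gave the same, beside 235 of all probes. The calls changed with the array left out. Such a fit holds 1 array and 1 dye orientation at that time, so no count is read from it. Without array 1 of 6 h the log2 ratios at 6 h were 2.43 for Tubb6 A_51_P421140 and 1.18 for Tuba1c. The median of the abundant neuronal probes at 24 h was -0.04 without array 1 of 24 h and -0.50 without array 2. Both arrays lay above 0 for 2 probes at 6 h (29.1% of all probes) and for 3 at 24 h (30.6%), and below 0 for 1 probe at 6 h (26.8%) and for 7 at 24 h (29.9%).

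The median log2 ratio of the 12 abundant neuronal probes was 0.04 at 6 h and -0.30 at 24 h, against 1.37 and 2.74 for the 3 minor probes. The minor median is the value of the Tuba1c probe alone, which lies between the 2 probes filed under Tubb6. The 2 probes that cannot be assigned to 1 isotype are counted as abundant. Over all 28978 probes tested the median was -0.00 at 6 h and 0.00 at 24 h. Of the abundant neuronal probes, 4 lay below 0 at 6 h, against 0 of 12 with median centring, 7 on array 1 alone and 6 on array 2 alone. At 24 h 11 of 12 lay below 0, against 12 with median centring, 10 on array 1 alone and 7 on array 2 alone. The median at 24 h was -0.50 on array 1 alone and -0.04 on array 2 alone, and probes differed in which of the arrays gave the lower ratio. The plot of both times shows the 2 minor isotypes apart from the rest of the family.

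**Figure D3:**
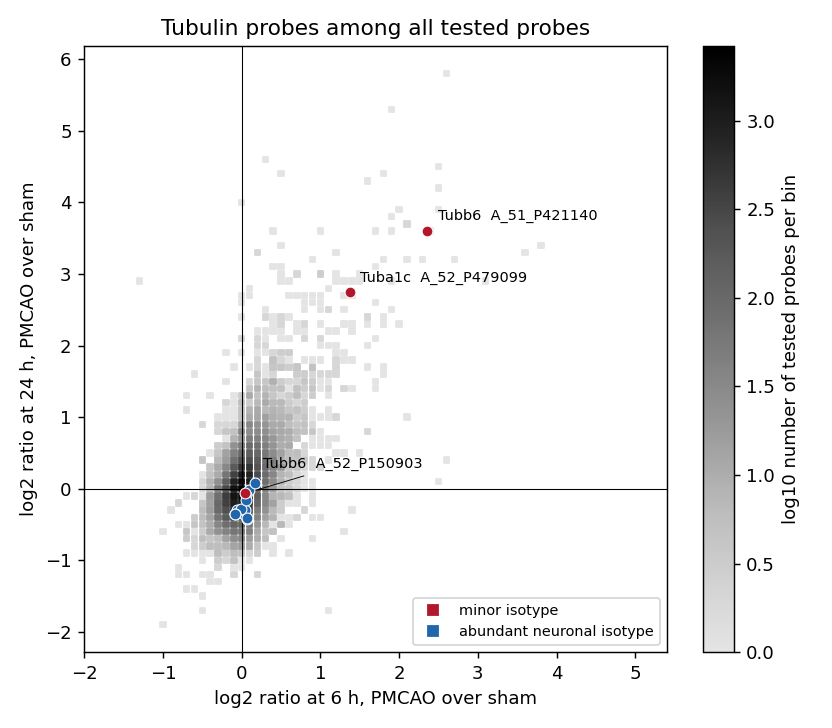
Mean log2 ratio of PMCAO over sham at 24 h (vertical axis) against that at 6 h (horizontal axis) for the 15 tubulin probes (coloured points), over all 28978 probes tested, binned and shaded by the log10 number of probes in a bin. Tubb6 A_51_P421140 (2.35 at 6 h, 3.60 at 24 h) and Tuba1c (1.37, 2.74) lie far out on the upper right, and the second Tubb6 probe (0.05, -0.07) lies with the abundant isotypes near the origin.

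The mean log2 ratio of Tubb6 A_51_P421140 was 3.60 at 24 h, against 2.35 at 6 h, a difference of 1.25 ± 0.15. That of Tuba1c was 2.74 at 24 h, against 1.37 at 6 h, a difference of 1.37 ± 0.23. In the same fit 1 tubulin probe, the Tubb6 one, was called higher for this difference, where 0.825% of all probes were, and 0 were called lower, where 0.138% were. The difference comes from the ratios on which the genes were listed, so nothing is read from this count either. Tuba1c missed the adjusted threshold, and at an unadjusted p under 0.05 2 probes were higher and 1 lower. The Tubb6 call was lost with the authors' processed signals, with the values of the series table, without background correction, with median centring and without either array of 6 h. Which tubulin probes were called for the difference changed with the array left out. Such a fit holds 1 array at that time, so no count is read from it.

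Sham brains at 24 h were compared with sham brains at 6 h. The genes were not listed on this contrast, but its sham signals are the denominators of the ratios on which they were. The contrast is therefore not independent of the listing, and its tubulin counts are a description too. The fitted log2 difference was above 0 for 15 of 15 tubulin probes, where 50.3% of all probes were, with a median of 0.23 and a range of 0.02 to 0.69. No probe passed the adjusted threshold in limma's separate-channel test (0 higher, where 2.54% of all probes were called, and 0 lower, where 1.63% were). At an unadjusted p under 0.05 3 probes were higher and 0 lower. The calls changed when array 2 of 24 h was left out, but that leaves 1 sham array at 24 h, so no count is read. In sham at 24 h array 1 gave log2 intensities of 14.06 for Tuba1b and 13.96 for Tuba4a A_51_P514300. Array 2 gave 13.37 and 13.51. Probes of 1 array share its dye and labelling, so the common sign over probes is not independent evidence. Some markers of other cells also differed in this contrast. Of 5 microglia markers 2 were higher in sham at 24 h (Aif1 by 0.38 and Csf1r by 0.31 on the log2 scale), of 2 red blood cell markers 1 was (Alas2 by 0.39), and of 5 neutrophil and monocyte markers 1 was lower (S100a8, log2 difference -1.15). Their part in the tubulin differences was not tested.

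The largest difference was that of Tubb2b, with log2 intensities of 12.29 and 11.97 in sham at 24 h, against 11.44 and 11.43 in sham at 6 h. The times did not overlap, and the fitted difference was 0.69 ± 0.22 (limma with Benjamini-Hochberg adjustment, adjusted p = 0.116). Tubb6 A_51_P421140 followed with 9.78 and 9.84 at 24 h, against 9.46 and 9.13 at 6 h, a difference of 0.51 ± 0.14 (limma with Benjamini-Hochberg adjustment, adjusted p = 0.0856). It passed the threshold with the processed signals and with quantile normalisation of the channels. Tubb5 A_52_P163796 had 16.06 and 16.04 at 24 h, against 15.77 and 15.87 at 6 h, a difference of 0.24 ± 0.08 (limma with Benjamini-Hochberg adjustment, adjusted p = 0.121). Tuba1c, the other minor isotype, differed by 0.02 ± 0.17 in sham (adjusted p = 0.967 in limma after Benjamini-Hochberg adjustment). The second Tubb6 probe differed by 0.03 ± 0.07. In sham the RefSeq-matched Tubb6 probe therefore stood near the upper end of the family and Tuba1c at the lower end.

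**Figure D4:**
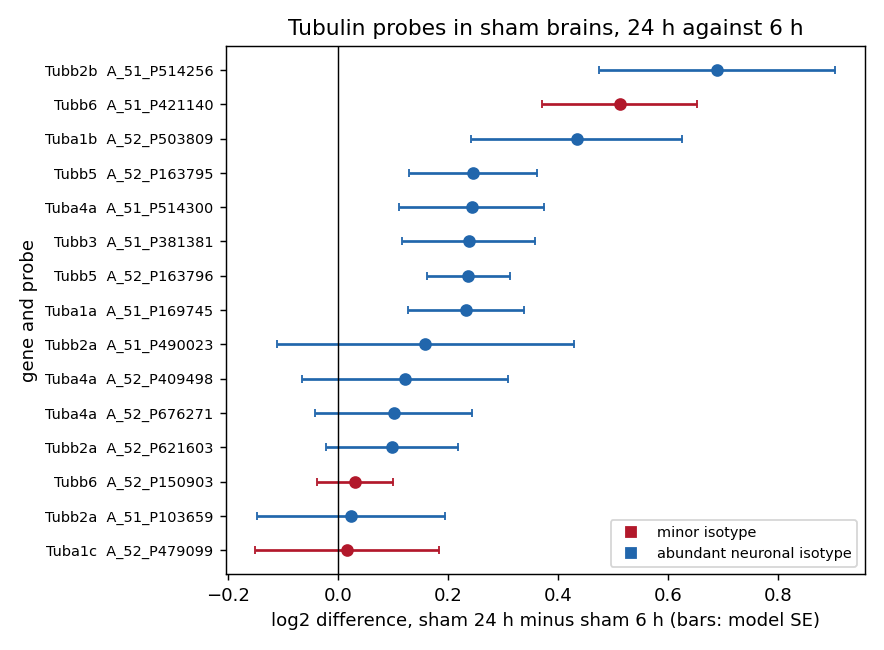
Log2 difference of sham brain at 24 h minus sham brain at 6 h (horizontal axis) for each tubulin probe (rows, sorted by the difference), with points for the fitted difference and bars for its model SE (n = 2 arrays per time). All 15 points lie above 0, from 0.02 for Tuba1c to 0.69 for Tubb2b, and none passed the adjusted threshold.

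The genes searched for ratios like those of Tubb6 A_51_P421140 were read by their brightest probe. Members, probes named only by the files, and clone or predicted-gene symbols were left out. Among the rest, the 5 genes whose log2 ratios on the 4 arrays lay nearest, by Euclidean distance, were Cd14, Maff, Ccl3, Atf3 and Ctla2b. Cd14, a co-receptor of innate immunity on monocytes and macrophages, lay at a distance of 0.622 with mean log2 ratios of 2.55 at 6 h and 3.88 at 24 h. Maff, a small Maf transcription factor, lay at 0.633 with 2.32 and 3.16. Ccl3, a chemokine that attracts leukocytes, lay at 0.701 with 1.96 and 3.86. Atf3, a transcription factor of the stress response, lay at 0.718 with 2.66 and 3.21, and Ctla2b at 0.726 with 1.89 and 3.63. This likeness covers 4 arrays of 1 experiment.

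Some markers of other cells differed between PMCAO and sham. Their calls are set beside the shares of all probes, 0.611% higher and 0.0138% lower at 6 h and 6.57% higher and 3.33% lower at 24 h. Of 6 listed neutrophil and monocyte markers 5 could be tested, and 4 of these were higher in PMCAO at 6 h and 5 at 24 h, with median log2 ratios of 1.92 and 4.35. Their summed intensity was 20901 to 21708.5 in PMCAO, against 8750 to 8859 in sham, at 6 h, and 80894 to 93592 in PMCAO, against 8210 to 9671 in sham, at 24 h. S100a8, a neutrophil and monocyte calcium-binding protein, had a mean log2 ratio of 5.27 at 24 h. Endothelial markers gave 0 higher (1 at an unadjusted p under 0.05, limma) and 1 lower (2 at an unadjusted p under 0.05) of 6 at 6 h and 2 higher and 1 lower at 24 h, with sums of 30422.5 to 35271 in PMCAO and 23403 to 27276.5 in sham at the later time. Microglia markers gave 0 calls of 5 at 6 h (2 lower at an unadjusted p under 0.05, limma) and 2 lower at 24 h. Astrocyte markers gave 0 of 5 at 6 h, also at an unadjusted p under 0.05, and 1 higher at 24 h. Of 2 red blood cell markers 0 were called at 6 h and 1 was higher at 24 h, with both higher at an unadjusted p under 0.05 at each time (limma). Hba-a1, a haemoglobin chain, had mean log2 ratios of 0.49 and 0.52, and Alas2, the erythroid enzyme of haem synthesis, had 0.39 and 0.38. Of 5 oligodendrocyte and 4 pericyte and smooth muscle markers 0 were called at either time (limma), with 1 oligodendrocyte marker higher and 1 pericyte marker lower at 24 h at an unadjusted p under 0.05. The part of these cells in the Tubb6 and Tuba1c ratios was not tested. Of the 9 neuron markers 0 passed the test at either time (limma), with 0 at an unadjusted p under 0.05 at 6 h and 1, lower, at 24 h, and their median log2 ratios were 0.02 and 0.04.

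No call was made among the remaining tubulin genes, which are the gamma, delta and epsilon tubulins and further alpha and beta isotypes. Of 11 listed, 8 were tested, and 0 were called at 6 h or 24 h (limma), with 1 lower at each time at an unadjusted p under 0.05. Their median log2 ratios were -0.03 and -0.10. Of 22 genes for tubulin folding and dimer assembly (the cofactors, prefoldin and the CCT chaperonin), 0 were called at either time and 0 had an unadjusted p under 0.05, and the medians were 0.01 and 0.10.

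Among genes that act on microtubules, calls are read beside the shares of all probes, 0.611% higher and 0.0138% lower at 6 h and 6.57% higher and 3.33% lower at 24 h. Of 22 microtubule-associated and dimer-binding proteins 0 were called at 6 h (1 lower at an unadjusted p under 0.05), and 1 was lower at 24 h. It was Map6, which protects microtubules from cold, with log2 ratios of -0.66 and -1.04 at 24 h, a mean of -0.85 ± 0.12 (limma with Benjamini-Hochberg adjustment, adjusted p = 0.0162). Of 15 genes for tubulin modification tested, 0 were called at 6 h, also at an unadjusted p under 0.05, and 2 were lower and 1 higher at 24 h. The lower ones were Ttl, the ligase that puts the terminal tyrosine back on alpha-tubulin, at -0.59 ± 0.08, and Agtpbp1, which trims polyglutamate side chains, at -0.39 ± 0.08. The higher one was Vash2, a carboxypeptidase that removes that tyrosine, at 0.37 ± 0.08, named after its value was seen. Of 6 severing enzymes 0 were called at 6 h, also at an unadjusted p under 0.05, and 2 were lower at 24 h, Fign (fidgetin) at -0.59 ± 0.12 and Spast (spastin) at -0.43 ± 0.09.

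In sham brain, 3 of the 22 microtubule-associated proteins were higher at 24 h than at 6 h, and 0 were lower, where 2.54% and 1.63% of all probes were. They were Map1b, a protein of growing axons, at a log2 difference of 0.53, Dclk1, a doublecortin-like kinase, at 0.38, and Clasp2, which binds growing microtubule ends, at 0.35, named after their values were seen. The 4 other lists gave 0 calls in sham (limma), with 0 to 2 genes of a list higher and 0 to 1 lower at an unadjusted p under 0.05.

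The 250 bases before the start of Tuba1c and of Tuba1a are shown because these neighbours on chromosome 15 are 2 alpha-tubulin genes with mean log2 ratios of 2.74 and -0.43 at 24 h. They are from RefSeq, build GRCm38.p6, whose positions cannot be set against those of mm7 above. Tuba1c lies on the plus strand (chr15:99029641-99029890, 55.6% GC) and Tuba1a on the minus strand (chr15:98953502-98953751, 56.8% GC). Capitals mark a CCAAT box on either strand in both, and in Tuba1a also a GC box.
Tuba1c: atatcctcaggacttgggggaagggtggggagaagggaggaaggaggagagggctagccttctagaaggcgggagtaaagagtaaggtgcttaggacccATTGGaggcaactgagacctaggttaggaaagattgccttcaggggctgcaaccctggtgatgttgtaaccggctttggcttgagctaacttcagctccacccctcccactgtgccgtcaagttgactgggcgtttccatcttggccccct
Tuba1a: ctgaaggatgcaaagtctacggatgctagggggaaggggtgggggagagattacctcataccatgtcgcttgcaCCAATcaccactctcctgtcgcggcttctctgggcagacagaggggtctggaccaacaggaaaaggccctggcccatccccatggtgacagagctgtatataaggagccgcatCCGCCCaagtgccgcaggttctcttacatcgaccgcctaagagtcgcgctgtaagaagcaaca
Both strands of such windows were searched for 7 motifs in the 7 member genes that the table holds, all but Tubb2b and Tubb6, and in all 32851 promoters. CCAAT was found in Tuba1a, Tuba1c, Tubb3 and Tubb5 (33.85% of all promoters), and the GC box GGGCGG in Tuba1a, Tuba1b, Tuba4a, Tubb2a and Tubb3 (32.74%). The CRE motif TGACGTCA (1.55%) and the TATA motif TATAAA (12.37%) were found in Tubb2a alone of the 7. The TATA motif was searched only as these exact letters, and the Tuba1a window printed above holds TATATAAG. The AP-1 motif TGANTCA (6.75%), the heat shock motif GAANNTTC (6.69%) and the CArG box (1.47%) were in 0 of the 7 windows. The heat shock motif was searched only with GAA before TTC. The Tuba1c window printed above holds TTCTAGAA, the same parts in the other order, which was not searched. The motifs reported here are matches of letters within 250 bases, not sites.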

How the data were processed

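Spot intensity values (mean signal, background median and processed signal of both channels) came from version 9.5.3.1 of Agilent Feature Extraction in the tables deposited by the authors, per the file headers. The authors' deposited series table holds a score per probe and array whose size equals the linear processed Cy5 over Cy3 ratio within 0.0051 and whose sign has an unknown meaning (column medians -0.96, 0.96, -0.91 and 0.95). Whether it was centred is also unknown. Per the file headers, probe positions use build mm7.

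Mean signals were corrected by normexp (offset 50) and loess-normalised within arrays in limma 3.58.1 (R 4.3.3). Control spots had weight 0, outlier-flagged spots (112 to 142 per array) were dropped and saturated spots (0 to 2) kept. Spots of a probe were averaged, and each log2 ratio was oriented as PMCAO over sham. A probe was tested (28978 were) when 1 or more of the 4 RNA groups had it well above background on each of its arrays. The test was 1 linear model of the 4 arrays with Benjamini-Hochberg adjustment at 0.05. Dye effects cancel in the mean of a time and stay in its spread. Channel levels and the sham contrast came after Aquantile normalisation, and the sham contrast used a separate-channel model of 28964 complete probes (intraspot correlation -0.396, held at that value when an array was left out or a block fitted). Only 2 arrays per time limit the precision. All 4 arrays were on 1 slide with 1 scan, so that no batch could be examined.

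Of 41174 probes, 22951 were named by accession, 6659 by symbol and 3109 by older symbol through a RefSeq table of GRCm38.p6, and 8455 kept the name in the files. For pathway lists and markers the brightest probe stood for its gene. Members, classes and lists were chosen with earlier results of these data known. Named genes are all members, the 5 nearest to the brightest Tubb6 probe, and per pathway list the 2 largest mean log2 ratios past the test at each time. Vash2, Map1b, Dclk1, Clasp2 and the cell type markers given with values were named after those were seen. Alternatives changed the background correction, normalisation, filter, probe choice, replicate block, arrays and source of values. 1 probe sequence is not reported here. The fits were tested on simulated arrays, and plots were drawn with matplotlib 3.10.9 under Python 3.11.15.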

Additional observations from a re-analysis of the deposited data

How the results depend on the processing

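Of 348 recomputed ratios of single probes, 338 moved by less than the spread between arrays. Only median centring, the processed signals, the missing background correction and the series table values could move a ratio by more. The other settings leave it unchanged, or, for a left-out array of its own time, shift it by less than that spread. The ratios of the Tuba1c probe and of Tubb6 A_51_P421140 kept their direction in all 48 of theirs, while 23 of the 300 of other probes had the opposite sign. These counts include the settings that leave a ratio unchanged. Tubb6 A_51_P421140 ranged over 2.27 to 2.64 at 6 h and 3.45 to 3.74 at 24 h, and Tuba1c over 1.18 to 1.56 and 2.47 to 3.01. Counts of called tubulin probes moved more. With median centring in place of loess, 0 tubulin probes were called higher in PMCAO at either time or for the difference, with 0 of all probes called. With the processed signals 1 was higher at 6 h (231 of all probes), 0 for the difference (20 of all) and 1 (Tubb6) in sham (852 of all). With the series table values 1 was higher at 6 h (235 of all) and 0 for the difference (23 of all). Without background correction 0 were higher for the difference (159 of all). Quantile normalisation gave 1 higher in sham (Tubb6), beside 978 of all probes. Leaving out the dim-probe filter, taking the brightest probe and fitting each time alone changed no count among the tubulin probes, though fitting 6 h alone called 1126 of all probes higher, against 177.

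The sample number, used as a replicate block, is also the dye orientation, and with only 2 pairs it does not establish a pairing. Deviations of array 1 from its group mean correlated across probes at 0.709 between the times. With the block 8 abundant neuronal probes were called lower at 24 h, beside 4963 of all probes against 964. For the difference 2 were then higher and 2 lower, beside 2099 and 1847 of all probes, against 239 and 40 without the block. In sham 1 (Tubb2b) was higher, beside 556 of all probes, against 736. Leaving out arrays in turn gave 1 to 2 higher and 0 lower at 6 h, 2 to 4 higher and 0 to 7 lower at 24 h, 0 to 2 higher and 0 to 5 lower for the difference, and 0 to 2 higher and 0 lower in sham. Without array 1 of 6 h Tuba1c was not called at 6 h. Without array 1 of 24 h 4 tubulin probes were lower and 4 higher at 24 h, and without array 2 of 24 h 7 were lower there and 2 higher in sham. Leaving out an array leaves 1 dye orientation at that time, so its dye effect stays in the value. The causes of the other shifts were not tested. A slide block could not be fitted with 1 slide.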
